A study of Mus musculus with 4 samples.

Results

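Gas5, Snhg1, Snhg3, Snhg5, Snhg6, Snhg8, Snhg12 and Zfas1 are noncoding genes whose introns carry small nucleolar RNAs (snoRNAs), and their spliced transcripts belong to the class under terminal oligopyrimidine (TOP) control. These 8 genes were listed by symbol and looked up by Ensembl identifier among the 45232 gene identifiers of the count files. A match was found for 7 of the 8. The GENCODE M21 identifier of Snhg1 had no match, so Snhg1 has no values here and only its sequence and its snoRNAs are described. The libraries came from leukemic granulocyte-macrophage progenitors (L-GMPs), sorted for the reporters GFP and tdTom and, per the labels, for c-Kit, CD34, CD16/32 and Sca-1, all positive, from mice carrying acute myeloid leukemia driven by the fusion oncoprotein MLL-AF9. All 4 mice were secondary recipients of MLL-AF9 leukemia and were sampled when they died. There were 2 mice in the control group, labelled Scr, and 2 in the group labelled miR-99 KD, with 1 library per mouse. Not given in the sources used here are strain, age, the vector behind each label and the number of primary leukemias.

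A snoRNA host gene is transcribed as a long precursor. Splicing releases the introns, from which the snoRNAs are trimmed and packed with proteins into particles that guide ribose methylation (box C/D snoRNAs) or pseudouridylation (box H/ACA snoRNAs) of ribosomal RNA. The spliced exons remain as a separate RNA, which in these genes has no long reading frame and is generally degraded by nonsense-mediated decay once ribosomes engage it. A TOP transcript begins with a cytosine followed by a run of pyrimidines, the feature that links ribosomal protein mRNAs and many snoRNA hosts to the growth kinase complex mTORC1 through the RNA-binding protein Larp1. Gas5 owes its name to its accumulation in growth-arrested cells.

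The sequences at the starts of the members are printed because the TOP tract is the feature that groups them. Of the members' 77 annotated transcripts, 13 began with C followed by at least 4 further C or T, and these transcripts came from 7 of the 8 genes. Among all 141767 GENCODE M21 transcripts the share was 2.02%, and among the 44585 genes of the files with a symbol 5.12% had at least 1 such transcript. The members were listed for TOP control, so shares of tract starts here and below are a description and no evidence of it. A share by gene also favours the members, which have 77 transcripts in 8 genes, where the annotation has 141767 in 55450. The tract began 5 of 25 transcripts of Gas5, 3 of 10 of Snhg12, and 1 transcript each of Snhg3, Snhg5, Snhg6, Snhg8 and Zfas1. None of the 18 annotated transcripts of Snhg1 began this way. Capitals mark the tract, coordinates are GRCm38, and each line gives 30 bases. The lines for Gas5, Snhg8 and Snhg12 span the RefSeq start (GRCm38.p6) and the others open a GENCODE transcript. For Snhg5 and Zfas1 that transcript is annotated as one with a retained intron.
Gas5, chr1:161035156-161035185, plus strand: ccatctcagCCTTTCggagctgtgcggcat
Snhg8, chr3:123508317-123508346, minus strand: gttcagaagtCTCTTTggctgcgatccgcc
Snhg12, chr4:132308668-132308697, plus strand: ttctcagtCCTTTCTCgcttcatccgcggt
Snhg3, chr4:132353604-132353633, minus strand: CTCTCTaggcgtcgctctcttggtgtgctt
Snhg5, chr9:88522859-88522888, minus strand: CTTTTacgacggagcctaagatattctttg
Snhg6, chr1:9944089-9944118, minus strand: CTTTCTCggcagcgccgtagagcgcgagca
Zfas1, chr2:167063221-167063250, plus strand: CCTTTCgttccggcggctcctagagcgttt

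RefSeq promoter windows, which run from 250 bases before the start to 50 after it, were found for 7 of the 8 members, with 2 windows for Gas5 and 1 for each of the others, and Snhg6 was not matched. A tract covering the RefSeq start itself was in 3 of these 8 windows, those of Snhg8 and Snhg12 and 1 of the 2 of Gas5, against 8.02% of the 32851 windows in the table. The other Gas5 window held neither the tract near its start nor TATANA. Snhg5 had CTTTT 9 bases after its RefSeq start and Snhg3 had CTTCC 2 bases after. A tract within 10 bases of the start is common, in 35.8% of all windows. In the windows of Snhg1 and Zfas1 the nearest tract lay 41 and 54 bases before the RefSeq start. A second shared feature was a TATA-like motif. Anywhere in the window and on either strand, the letters TATANA were in 24.7% of all windows. Among the members they were in the windows of Snhg1, Snhg3, Snhg5, Snhg8 and Snhg12 and in 1 of the 2 of Gas5. They were then read on the strand of the gene only and counted where the motif began 20 to 40 bases before the start. Placed so, they were in 4 of the 8 windows, against 3.11% of all windows. These were the windows of Snhg5, Snhg8 and Snhg12 and the Gas5 window with the tract. These 4 stretches are shown with TATANA in capitals, since 3 of the 4 genes also carry the tract on the start.
Gas5, chr1:161035125-161035154, plus strand: tcacgaagacctTATATActcgactcagcc
Snhg5, chr9:88522903-88522932, minus strand: cacaaaggagacTATAAAaggagctgcggt
Snhg8, chr3:123508349-123508378, minus strand: cgtcacccgggcTATAAAagcgtgcgcgca
Snhg12, chr4:132308634-132308663, plus strand: agggcgcgagagTATATAatcctggtgcag
The palindromic E-box CACGTG was in 0 of the member windows and in 7.15% of all windows, which says only that these letters are not in these windows.

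The members' transcripts were also searched for the seed match of the microRNA family whose name the treated group carries. The 3 family members in the RefSeq table share bases 2 to 8, shown in capitals.
miR-99a-5p: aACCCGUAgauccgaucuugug
miR-99b-5p: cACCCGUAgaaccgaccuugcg
miR-100-5p: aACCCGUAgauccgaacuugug
The complementary letters TACGGGT were in 0 of the 77 member transcripts and in 1.38% of all transcripts.

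The libraries held 38458519 to 42674407 gene counts, and 44585 of the 45232 identifiers had a symbol. Scr 1 stood apart, with counts in 28573 genes against 21372 to 24038 in the others and 51.9 CPM (gene counts scaled to a common library size) in olfactory receptor genes against 4.78 to 14.95. Of the 10 L-GMP and gate markers, 9 were at or above 1 CPM in at least 1 library, and Ly6a, the gene of the gate antigen Sca-1, was under 1 CPM in all 4. Several marker lists also had different values in the groups, with 0 markers called by edgeR. Of 12 granulocyte maturation genes, edgeR called 0 (9 higher at an unadjusted p under 0.05) and DESeq2 called 6 higher. In this list 11 genes were positive in log2 fold change and Ctsg was not (−0.09), none was under 1 CPM in all libraries, and the summed level was 5143 and 3825 CPM in Scr versus 8984 and 19814 in miR-99 KD. Of 9 L-GMP and gate genes tested, 5 were positive and 4 negative. The granule enzyme gene Mpo was higher (2.59 ± 0.40), and Kit (−0.67 ± 0.19), Hoxa9 (−0.92 ± 0.19) and Meis1 (−0.61 ± 0.16) were lower, each with an unadjusted edgeR p under 0.05. Both miR-99 KD libraries were above both Scr libraries for Mpo, Cd34 (0.15), Fcgr3 (0.21) and Fcgr2b (0.30), as for 18.9% of all genes. Cebpa (0.63) and Flt3 (−0.53) overlapped between the groups. DESeq2 called 1 of the 9 tested, Mpo. Of 8 erythroid genes tested, 6 had negative fold changes with a median of −1.32, and edgeR called 0 and DESeq2 1, Slc4a1. The summed erythroid level was 65.7 and 93.0 CPM in Scr versus 43.4 and 105 in miR-99 KD. Of 6 stroma and endothelium genes tested, 5 were negative with a median of −0.66. That direction depended on Scr 1, since without it 4 were positive and the median was 0.70. Summed levels were 568 and 562 CPM in Scr versus 363 and 278 in miR-99 KD. Most of each sum in Scr was Vcam1, with 445 and 444 CPM versus 207 and 138 in miR-99 KD, and DESeq2 called Vcam1 lower. Of 9 monocyte and macrophage genes, 5 were positive and 4 negative, with a median of 0.38, and DESeq2 called 1, F13a1, higher (0.90 ± 0.16). Of 2 T and NK cell genes tested, 2 were negative, and DESeq2 called 1, Klrb1c, lower. Klrb1c had 1.22 and 1.48 CPM in Scr versus 0.266 and 0.237 in miR-99 KD. The mitochondrial share of counts was 0.650% and 0.637% in Scr against 0.853% and 1.16% in miR-99 KD. The part of these differences in the members' values was not tested. In sorted populations such as these, fewer cells with a transcript and less of it per cell cannot be told apart.

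All 7 measured host transcripts had higher mean levels in miR-99 KD than in Scr, by 1.11-fold (Gas5, Snhg3) to 1.65-fold (Snhg8), and none of these differences passed the test over all genes. The test was edgeR's quasi-likelihood test with adjustment over 15591 genes and a threshold of 0.05, and levels are CPM scaled by TMM library factors. It called 0 of the 7 members and 0% of all genes. At an unadjusted p under 0.05 it had 1 member higher, Snhg8, where 2.66% of all genes were higher, and 0 lower, where 5.23% were. DESeq2 called 0 members, beside 0.725% of genes higher and 0.949% lower, and limma-voom called 0 members and 0 genes. A positive log2 fold change was found for 7 of 7 members and 49% of genes tested. The members' median was 0.29 on the log2 scale, against −0.01 for all genes. Both miR-99 KD libraries lay above both Scr libraries for 6 of 7 members, all but Snhg3, and for 18.9% of all genes. That count depended on the scaling. It was 6 of 7 (20.8% of genes) with DESeq2 size factors, but 4 of 7 with upper-quartile factors (12.2%) or library totals alone (12.6%), where Gas5 and Snhg6 overlapped as well. Without Scr 1, the fold changes of 7 of 7 members were still positive and their median was 0.40, against 0.0011 for all genes. That fit called 0 members, where 1.85% of all genes passed, and had 0 members higher at an unadjusted p under 0.05, where 3.13% of genes were. With 2 mice per group, p-values set differences against the spread within groups of these 4 animals, moderated by the spread of other genes.

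**Figure D1:**
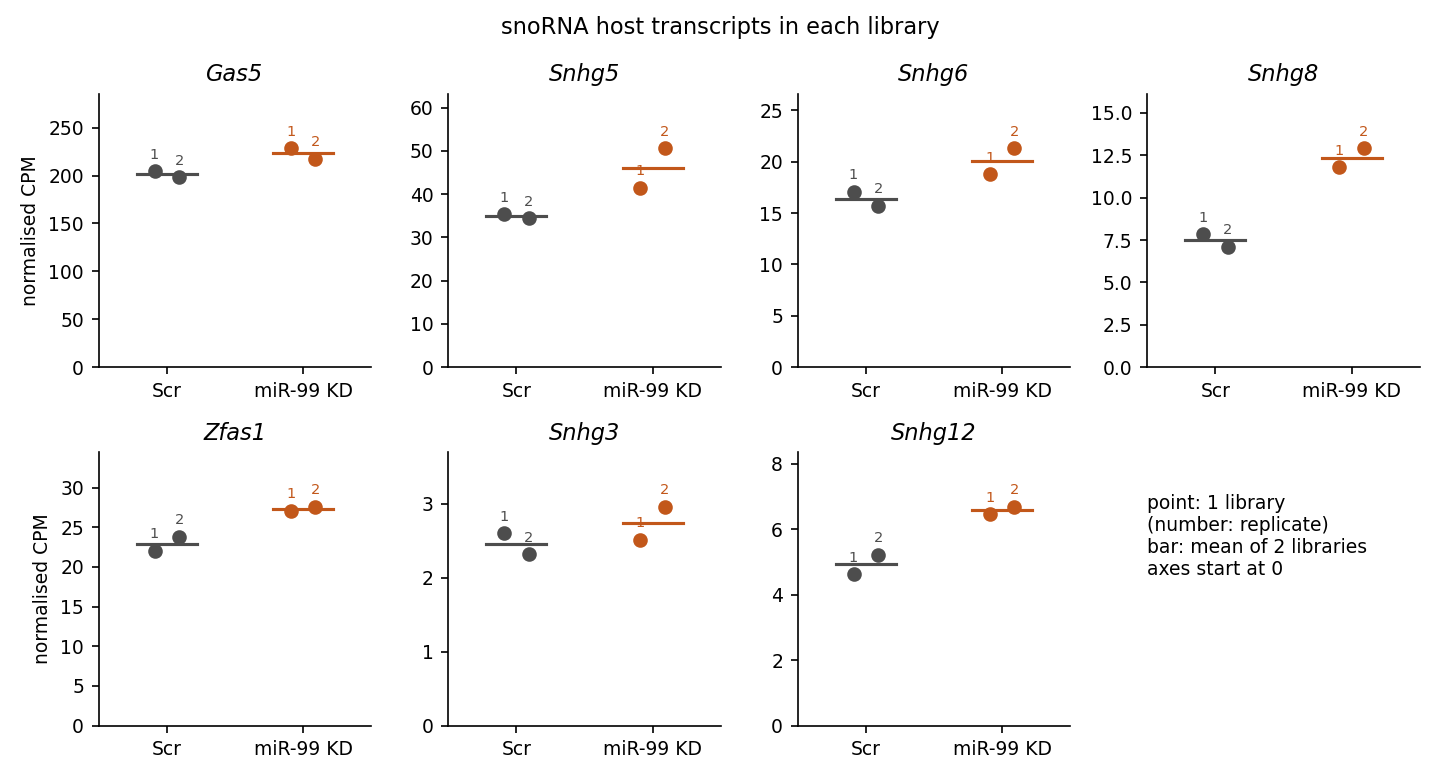
Level of each of the 7 measured host transcripts in each library, as normalised CPM on linear axes that start at 0, with Scr in grey, miR-99 KD in orange, replicate numbers beside the points and a bar at the mean of 2 libraries. The groups do not overlap for 6 transcripts and overlap for Snhg3, and the widest relative gap is that of Snhg8.

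Gas5, the most abundant member, hosts 10 annotated snoRNA gene entries, among them the box C/D Snord47 and Snord78 and 2 overlapping entries for Snord80, and lies on chromosome 1 at 161034422 to 161038539 on the plus strand. Its level was 205 and 198 CPM in Scr 1 and 2, versus 228 and 218 in miR-99 KD 1 and 2. The groups did not overlap, and the gap of 13.1 CPM between Scr 1 and miR-99 KD 2 exceeded the SDs of 4.41 and 7.68 within them (n = 2 each). The log2 fold change was 0.15 ± 0.14 (SE), with a 95% interval from −0.23 to 0.52 and an edgeR adjusted p of 0.780. Its raw counts ran from 8048 to 9449, the most of any member.

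Snhg5 hosts the box C/D snoRNAs Snord50a and Snord50b on chromosome 9 at 88521050 to 88522929. It had 35.3 and 34.4 CPM in Scr versus 41.5 and 50.6 CPM in miR-99 KD. The Scr animals were close to each other and the miR-99 KD animals differed by more than the distance from miR-99 KD 1 to Scr. This gave a log2 fold change of 0.40 ± 0.20, with an interval from −0.13 to 0.93 and an edgeR adjusted p of 0.675.

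Snhg6 carries the box C/D snoRNA Snord87 on chromosome 1 at 9941959 to 9944118. It had 17.1 and 15.7 CPM in Scr versus 18.8 and 21.3 CPM in miR-99 KD. The gap between the groups was 1.70 CPM, under the SD of 1.78 in miR-99 KD. Snhg6 had a log2 fold change of 0.29 ± 0.20, from −0.25 to 0.83, with an edgeR adjusted p of 0.736.

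Zfas1 was first described as an RNA antisense to the start of the zinc finger gene Znfx1, and it hosts snoRNAs of the Snord12 family on chromosome 2 at 167062934 to 167065862. Its levels were 22.03 and 23.8 CPM in Scr versus 27.1 and 27.6 CPM in miR-99 KD. The miR-99 KD animals were nearly equal, and the gap of 3.30 CPM was larger than either group's SD (1.24 and 0.355). For Zfas1 the log2 fold change was 0.26 ± 0.19, from −0.24 to 0.75, with an edgeR adjusted p of 0.740.

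The other 3 measured members host mainly box H/ACA snoRNAs. They include the 2 least abundant members and Snhg8, which had the largest fold change. Snhg8 hosts Snora24 on chromosome 3 at 123507552 to 123508404. It had 323 and 288 counts in Scr versus 488 and 545 in miR-99 KD, which are 7.85, 7.10, 11.8 and 12.9 CPM. The gap of 3.95 CPM between the groups was several times the SD within them (0.534 and 0.789, n = 2 each). The log2 fold change was 0.73 ± 0.22, from 0.14 to 1.31, higher than 95.1% of all genes tested. Its p of 0.0254 ranked 674 of 15591 in edgeR and gave an adjusted p of 0.585, and DESeq2 gave an adjusted p of 0.330. Across the 17 alternative analyses its log2 fold change ran from 0.67 to 0.88 and its adjusted p from 0.309 to 0.99997.

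Snhg12 hosts Snora16a, Snora44, Snora61 and the box C/D Snord99 on chromosome 4 at 132308623 to 132311024. It had 4.62 and 5.22 CPM in Scr versus 6.46 and 6.68 CPM in miR-99 KD. These rest on 190, 212, 267 and 282 counts. The gap of 1.23 CPM exceeded both SDs (0.428 and 0.160). The log2 fold change was 0.42 ± 0.23, from −0.21 to 1.04, with an edgeR adjusted p of 0.696.

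Snhg3 carries Snora73a and Snora73b, members of an H/ACA family that takes part in cutting the ribosomal RNA precursor, on chromosome 4 at 132348014 to 132353686. It had 107 and 94 counts in Scr versus 104 and 125 in miR-99 KD, or 2.60, 2.32, 2.51 and 2.96 CPM. The groups overlapped, since miR-99 KD 1 was below Scr 1. Its log2 fold change was 0.16 ± 0.27, from −0.56 to 0.87, with an edgeR adjusted p of 0.872. It was 0.06 without miR-99 KD 2 and 0.33 without miR-99 KD 1.

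**Figure D2:**
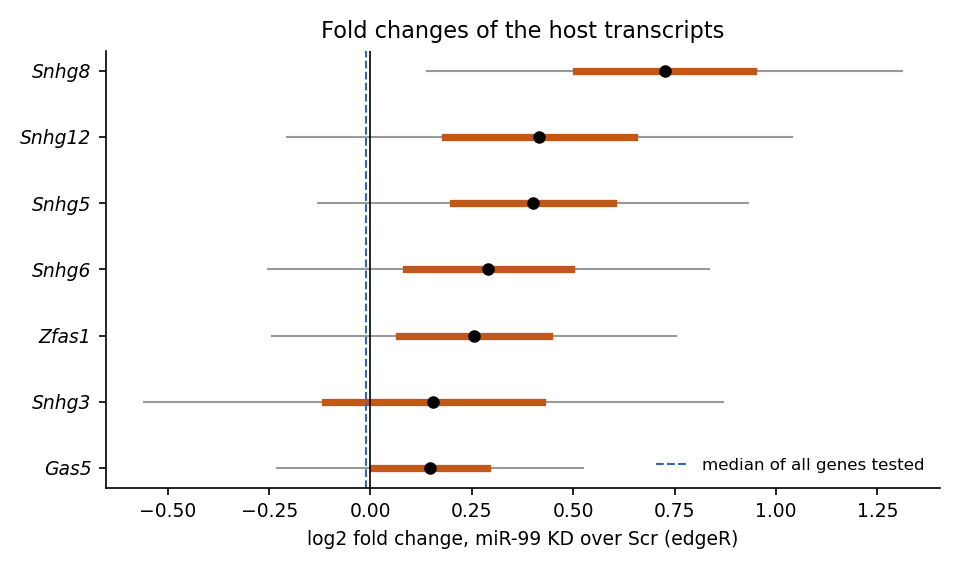
Fold change of each host transcript, as log2 of miR-99 KD over Scr on the x axis, with the estimate as a point, 1 standard error to each side as the thick bar and the 95% interval as the thin line, beside the median of all genes tested (dashed). All 7 points lie above 0 and only the interval of Snhg8 does not reach 0, before any adjustment for 15591 tests. The intervals rest on 4.413 degrees of freedom, of which 2.413 are borrowed from the spread of all genes tested.

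The members differed in which animal stood highest. After centring log2 CPM on the 4 libraries, miR-99 KD 2 was the highest library for 6 of 7 members and miR-99 KD 1 for Gas5 (0.11 against 0.04). The lowest was Scr 2 for Gas5, Snhg3, Snhg5, Snhg6 and Snhg8, and Scr 1 for Snhg12 and Zfas1. The mean of the centred values over the members was −0.15 and −0.19 in Scr 1 and 2, versus 0.11 and 0.23 in miR-99 KD 1 and 2. miR-99 KD 2 was also the library with the highest mitochondrial share and the highest summed granulocyte level given above.

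As a share of all gene counts the members together took 0.0315% and 0.0278% in Scr versus 0.0326% and 0.0337% in miR-99 KD. On this scale, which has no TMM factor, Scr 1 and miR-99 KD 1 differed by less than the Scr animals did. Gas5 made up most of these counts. Its part of the members' counts was 69.6% and 69.1% in Scr versus 67.9% and 64.1% in miR-99 KD, so the other 6 together had the larger relative difference. Without Gas5 the members took 0.00958% and 0.00858% of gene counts in Scr versus 0.0105% and 0.0121% in miR-99 KD.

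Levels of different members were compared per kilobase of annotated exon. The mean over 4 libraries was 56.4 CPM per kb for Gas5, 23.4 for Snhg5, 15.9 for Snhg6, 11.6 for Snhg8, 8.58 for Zfas1, 2.64 for Snhg3 and 2.39 for Snhg12. Gas5 ranged from 52.7 to 60.8 over the libraries and stood clear of Snhg5 (19.9 to 29.2), which stood clear of Snhg6 (13.7 to 18.6). The ranges overlapped for 3 pairs of neighbours in the order, which were Snhg6 with Snhg8, Snhg8 with Zfas1, and Snhg3 with Snhg12. The first 5 kept their places in every library, and Snhg3 and Snhg12 exchanged the last places in miR-99 KD 1. The order was the same with the longest transcript as length. It was not the same when only exon bases shared with no other gene were used, an alternative chosen after seeing the data, because Snhg3 has 135 such bases and 86.3% of its exon bases are shared with Rcc1, Gm17300 or Snora73a. Snhg3 then stood at 19.3 CPM per kb, behind only Gas5 (68.7) and Snhg5 (25.5). The deposited counts keep a category named ambiguous, for reads open to several genes, with 0.984% to 1.21% of entries. The overlap mode, strand setting and annotation are not given. Which reads in shared bases went there is therefore unknown, and the place of Snhg3 is uncertain.

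**Figure D3:**
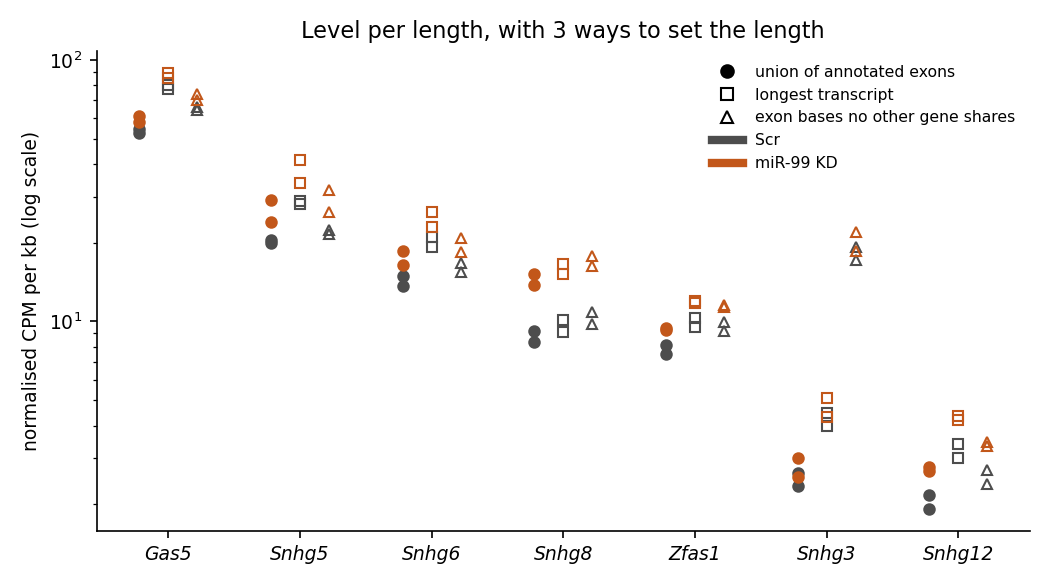
Level per length of the 7 host transcripts in each library, in normalised CPM per kb on a log axis, with Scr in grey and miR-99 KD in orange and with 3 definitions of length as circles, squares and triangles. Gas5 is highest under each definition, and Snhg3 is the transcript whose place depends on the definition.

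Few counts were assigned to the snoRNA genes themselves. The files list 32 snoRNA gene entries within the 8 hosts, Snhg1 included, and together they held 36 counts over the 4 libraries, with 7 genes having any count. All 10 entries of Gas5 were at 0 in each library, and all 10 lie within its annotated exons. The 8 snoRNA genes of Snhg1 held 25 of the 36 counts, and Snhg1 is the host with no identifier in the files. Snord22, the one with most, had 7, 2, 9 and 2. Snora73a within Snhg3 had 0 and 1 counts in Scr versus 3 and 4 in miR-99 KD, and Snord87 within Snhg6 had 2, 0, 1 and 0. Of the 32 snoRNA genes, 30 lie within an annotated exon of their host, since transcripts with retained introns are annotated there, and reads from such bases are open to both genes. Reads in the ambiguous category were left out of the gene counts, and which genes they came from is not given. The snoRNA counts therefore set no limit on the level of the snoRNAs, and whether host counts include reads from them was not tested.

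Several members share a start region or exon bases with a neighbour, and without a stated strand setting reads from overlapping genes on opposite strands cannot be told apart. Rcc1, a nucleotide exchange factor of the nuclear transport GTPase Ran, begins 81 bases from Snhg3 on the same strand. It had 150 and 164 CPM in Scr versus 160 and 109 CPM in miR-99 KD, with a log2 fold change of −0.23 ± 0.24 (edgeR adjusted p 0.794). Its levels were far above those of Snhg3, whose counts were 0.0141 to 0.0273 of those of Rcc1. The noncoding Gm17300 on the other strand, which shares 705 exon bases with Snhg3, had 7.03 and 8.06 CPM in Scr versus 8.68 and 7.84 in miR-99 KD (0.13 ± 0.23, edgeR adjusted p 0.874).

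Mcmdc2, a meiotic relative of the replicative helicase subunits, ends within Snhg6 on the opposite strand and shares 127 exon bases with it. Its counts were 203 and 216 in Scr versus 29 and 29 in miR-99 KD, opposite in direction to those of Snhg6. The log2 fold change was −2.88 ± 0.27, with an adjusted p of 0.275 in edgeR and 5.05e-09 in DESeq2. Snhg6 held 3.46 and 2.95 counts per count of Mcmdc2 in Scr versus 26.8 and 31 in miR-99 KD.

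Znfx1, which encodes a helicase-like zinc finger protein, starts 81 bases from Zfas1 on the opposite strand and shares 82 exon bases with it. It had 49.0 and 48.5 CPM in Scr versus 80.8 and 51.7 CPM in miR-99 KD. The miR-99 KD animals differed by more here than for Zfas1, and the log2 fold change of 0.44 ± 0.27 had an edgeR adjusted p of 0.706. Zbtb37 overlaps the span of Gas5 with no shared exon base, and had 5.76 and 5.57 CPM in Scr versus 5.49 and 4.67 in miR-99 KD (−0.16 ± 0.24, edgeR adjusted p 0.857). Slc3a2, the heavy chain of amino acid transporters, starts 106 bases from the annotated start of Snhg1, and had 114, 124, 110 and 120 CPM (−0.05 ± 0.16, edgeR adjusted p 0.936).

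**Figure D4:**
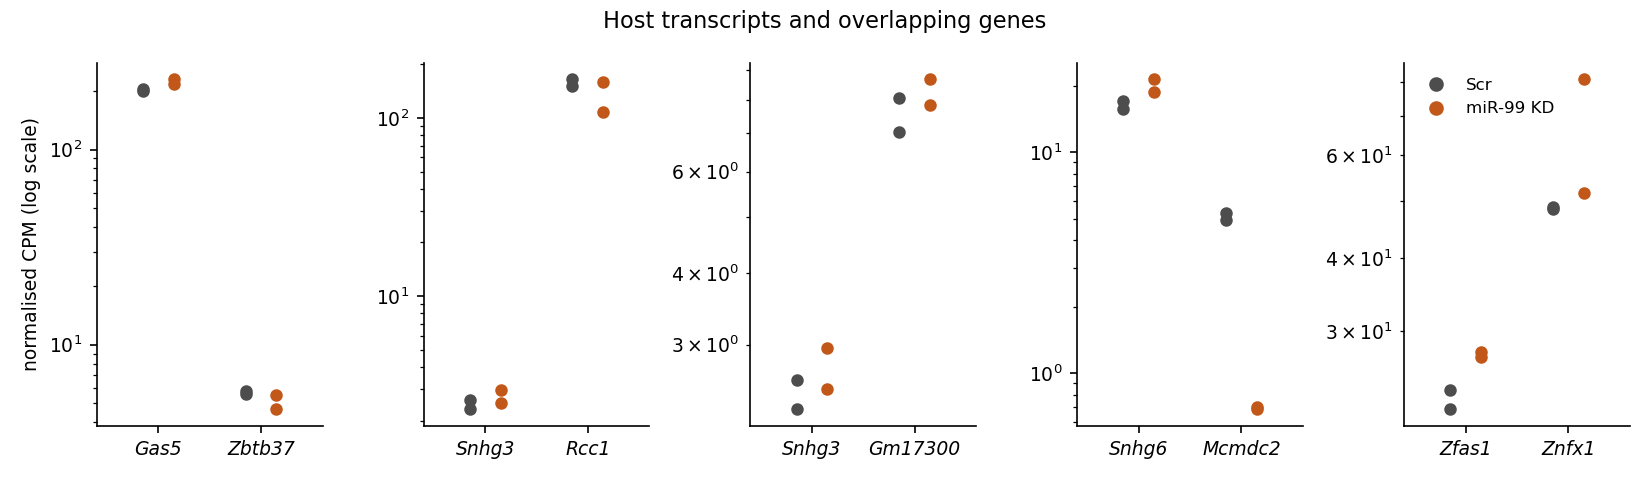
Levels of host transcripts (left in each panel) and of the genes that overlap them (right), as normalised CPM on log axes that differ between panels, with 1 point per library, Scr in grey and miR-99 KD in orange. Mcmdc2 is lower in both miR-99 KD libraries while Snhg6 is higher, Rcc1 is lowest in miR-99 KD 2 at 109 CPM and Znfx1 is highest in miR-99 KD 1 at 80.8 CPM.

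Other genes of the same biology were described by lists, with 0 genes called by edgeR in each. At an unadjusted p under 0.05 edgeR had Rps3, Hspa8, Eef1a1 and Atf3 higher and Snhg11, Smg9 and Sgk1 lower, and DESeq2 called Snhg11 and Sgk1. Noncoding snoRNA hosts outside the members went both ways. Of 16 listed, 11 were matched and 10 tested, with 4 positive and 6 negative log2 fold changes and a median of −0.14. Snhg11, a transcript best known from neurons, had 14.4 and 16.4 CPM in Scr versus 3.14 and 0.664 in miR-99 KD (−3.02 ± 0.78). Its adjusted p was 0.569 in edgeR and 0.00360 in DESeq2. Snhg17 had 49.9 and 49.0 CPM in Scr versus 39.9 and 26.0 in miR-99 KD (−0.59 ± 0.27, edgeR adjusted p 0.661).

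Protein-coding snoRNA hosts, most of them ribosomal protein genes, mostly had positive log2 fold changes. Of 31 tested, 26 were positive, and the groups did not overlap, with miR-99 KD higher, for 25, where 18.9% of all genes did so. The median log2 fold change was 0.37, and it was 0.31 to 0.41 under the other scalings. Rps3, a small subunit ribosomal protein gene, had 625 and 630 CPM in Scr versus 783 and 962 in miR-99 KD (0.48 ± 0.17, edgeR adjusted p 0.621). Hspa8, the constitutive heat shock cognate chaperone gene, had 330 and 333 CPM in Scr versus 418 and 452 in miR-99 KD (0.39 ± 0.14, edgeR adjusted p 0.621). Those that were not positive were Eef2, Eif4a1, Eif4a2, Ncl and Nop56, and of these Nop56, a core protein of box C/D particles, had non-overlapping lower values (−0.15). The list overlaps the ribosomal protein genes, whose direction was already known when it was chosen, so it is no independent evidence.

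Other TOP mRNAs were listed apart from the snoRNA hosts above but were not screened for snoRNAs of their own. They had 14 of 16 positive log2 fold changes and a median of 0.32. The groups did not overlap, with miR-99 KD higher, for 10, where 18.9% of all genes did so. Eef1a1, the main translation elongation factor and an abundant TOP mRNA, had 1856 and 2088 CPM in Scr versus 2531 and 2920 in miR-99 KD (0.47 ± 0.16, edgeR adjusted p 0.621). Npm1, the nucleolar chaperone nucleophosmin, had 242 and 259 CPM in Scr versus 300 and 362 in miR-99 KD (0.40 ± 0.17, edgeR adjusted p 0.655). Without Scr 1 the positive counts were 28 of 31 for protein-coding hosts and 14 of 16 for these mRNAs.

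**Figure D5:**
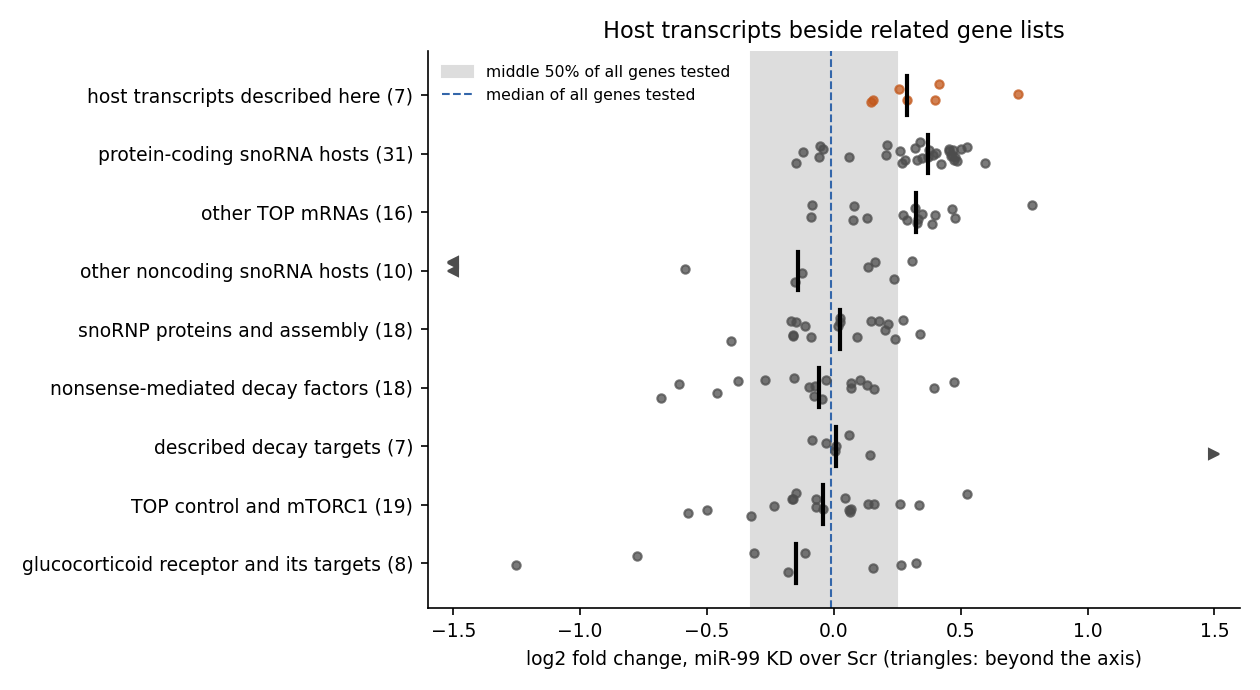
Log2 fold change (miR-99 KD over Scr) of each tested gene in the 7 measured host transcripts and 8 related lists, with the number of genes in brackets, a black bar at each list's median, the middle 50% of all genes shaded and their median dashed, and triangles for genes beyond the axis. The members, the protein-coding hosts and the other TOP mRNAs have medians of 0.29, 0.37 and 0.32, and the remaining lists have medians between −0.15 and 0.03.

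Genes that act on the hosts or their products had medians near that of all genes. Of 18 snoRNA particle and assembly proteins, 11 were positive, 2 did not overlap with miR-99 KD higher and 5 with miR-99 KD lower (25.3% of all genes), and the median was 0.03, or −0.03 with library totals alone. Shq1, an assembly chaperone of H/ACA particles, had 40.7 and 35.3 CPM in Scr versus 33.1 and 24.3 in miR-99 KD (−0.41 ± 0.24, edgeR adjusted p 0.704). Nop10, a core H/ACA protein gene, had 154 and 129 CPM in Scr versus 155 and 186 in miR-99 KD (0.27 ± 0.19, edgeR adjusted p 0.735).

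Of 18 nonsense-mediated decay factors, 7 were positive and 11 negative, with a median of −0.06. Without Scr 1, 8 were positive and the median was −0.13. Upf1, the helicase of this pathway, varied widely within the groups. It had 18.5 and 150 CPM in Scr versus 132 and 52.2 in miR-99 KD (0.13 ± 1.05, edgeR adjusted p 0.973). Smg9, part of the complex around the kinase that phosphorylates the helicase Upf1, had 61.3 and 62.4 CPM in Scr versus 44.8 and 45.2 CPM in miR-99 KD (−0.46 ± 0.17, edgeR adjusted p 0.621). Smg5, which binds phosphorylated Upf1, had 107 and 104 CPM in Scr versus 81.9 and 50.1 in miR-99 KD (−0.68 ± 0.28, edgeR adjusted p 0.655). Both were among the 5 of 18 factors with non-overlapping lower values, a share near the 25.3% of all genes, and 2 of 18 had non-overlapping higher values. Among 7 protein-coding transcripts described as decay targets, 5 were positive and the median was 0.01, or −0.01 and −0.04 with upper-quartile factors and library totals alone. The stress factor Atf3 had 8, 7, 19 and 38 counts (1.87 ± 0.56, edgeR adjusted p 0.585), and the stress gene Gadd45b overlapped between the groups (0.14 ± 0.21, edgeR adjusted p 0.854).

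Of 19 genes of TOP control and mTORC1, 9 were positive and 10 negative, with a median of −0.04. Larp1b, a relative of the TOP-binding protein Larp1, had 6.95 and 6.80 CPM in Scr versus 5.22 and 5.74 in miR-99 KD (−0.33 ± 0.23, edgeR adjusted p 0.735). Tsc2, a brake on mTORC1, had 125, 129, 120 and 59.0 CPM (−0.50 ± 0.37, edgeR adjusted p 0.741), and the library far below the rest was miR-99 KD 2. Larp1 itself had 56.7 and 60.6 CPM in Scr versus 58.3 and 72.8 in miR-99 KD, so the groups overlapped (0.16 ± 0.20, edgeR adjusted p 0.823).

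The glucocorticoid receptor can bind Gas5 RNA, so the receptor gene and 7 of its textbook targets were listed too. Of these 8 genes, 3 were positive and 5 negative, with a median of −0.15. Sgk1, a kinase gene induced by glucocorticoids, had 32.97 and 29.7 CPM in Scr versus 13.5 and 12.8 CPM in miR-99 KD. Its log2 fold change was −1.25 ± 0.20, with an adjusted p of 0.421 in edgeR and 0.00124 in DESeq2. Zbtb16, another induced gene, had 19.3, 19.6, 16.8 and 5.95 CPM (−0.77 ± 0.53, edgeR adjusted p 0.733).

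The genes whose profile over the 4 libraries was most like the members' mean were found among 7618 genes of at least 20 CPM. Likeness was the root mean square difference of centred log2 CPM. The nearest 5 were Hsd17b4 (0.0140), Magt1 (0.0148), Zfp280c (0.0148), Fignl1 (0.0162) and Melk (0.0164). They encode a peroxisomal enzyme, a magnesium transporter and glycosylation subunit, a zinc finger protein, a repair ATPase and a mitotic kinase. Hsd17b4 had 77.5 and 77.3 CPM in Scr versus 95.4 and 103 CPM in miR-99 KD. With 4 libraries and so many candidates, close profiles are a description only.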

How the data were processed

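RNA sequencing of 4 libraries (2 Scr, 2 miR-99 KD) was analysed from deposited counts per Ensembl gene. The deposited counts are whole numbers with no scaling by the authors recorded. Per the labels' protocols, RNA was extracted with Trizol LS and amplified with SMARTer. Per the submitters' processing notes, STAR, Picard, HTSeq and DESeq2 were used with build mm9, and the sources used here give no versions, annotation or strand setting. The 5 categories that name no gene held 43.7% to 49.7% of entries and were left out. Entries in no annotated gene were 19.8% and 14.9% in Scr versus 13.5% and 12.0% in miR-99 KD. Alignments that were not unique were 19.8% and 19.3% in Scr versus 20.1% and 23.6% in miR-99 KD. The part of these differences in the members' values was not tested. Since alignments that were not unique were left out, genes with close copies, ribosomal protein genes included, are under-counted.

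Identifiers were matched to GENCODE M21 (GRCm38) for symbols, coordinates and lengths, with none converted from mm9. Sequences came from GENCODE M21 transcripts and RefSeq tables (GRCm38.p6). The main test was edgeR 4.0.16 (R 4.3.3), quasi-likelihood, two-sided, with TMM factors and the default filter (minimum count 10), Benjamini-Hochberg adjusted over 15591 genes, on 2 residual degrees of freedom. Standard errors were derived from the test statistic. Intervals are 95%, from a t distribution on 4.413 degrees of freedom. Of these, 2 are residual and 2.413 are borrowed from the spread of all genes tested. The scripts were run on simulated data with less spread than these. That run checked that edgeR's median fold changes were recovered, not its error rates in these data. Alternatives were DESeq2 1.42.0, limma-voom (limma 3.58.1), other scalings and filters, a replicate block and leaving out each library.

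The members and lists were chosen with earlier results of these data known. Named were all members, the 2 genes of smallest p per list, genes overlapping a member or starting within 1 kb of one, the embedded snoRNAs, and the 5 genes most alike in profile. Larp1, Upf1, the named markers, Snora73a, Snord87 and the negative protein-coding hosts were named after their values were seen.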

Additional observations from a re-analysis of the deposited data

How the results depend on the processing

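The members' fold changes kept their direction in every analysis run. All 119 values (7 members, 17 alternatives) were positive and 0 were called. Leaving out 1 library in edgeR moved Snhg5 most of the members, from 0.40 to 0.60 without miR-99 KD 1 and to 0.28 without miR-99 KD 2. Gas5 moved most without Scr 1 (0.24), and Snhg6 (0.44) and Snhg3 (0.33) most upward without miR-99 KD 1. The number of genes called over the whole table, 0 with edgeR, was 9 with no filter, 23 with upper-quartile factors, 261 with DESeq2 and, in analyses chosen after seeing the data, 9 with library totals alone. Leaving out 1 library gave 0 to 294 called genes in edgeR, the highest without Scr 1, and 0 members in each. DESeq2, also run this way after seeing the data, called 139 genes without Scr 1, 742 without Scr 2, 179 without miR-99 KD 1 and 48 without miR-99 KD 2, and 0 members in each. A lone library is then assumed to vary like the other group. The members' median log2 fold change ran from 0.27 to 0.44 in edgeR and from 0.27 to 0.45 in DESeq2 (0.41 without Scr 1) when 1 library was left out, and the cause was not tested. The difference in the members' share of counts was 0.00353 percentage points, and 0.00171 to 0.00536 without 1 library.

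Replicate numbers were not taken to pair the animals, since no label says that they mark a batch. Deviations of same-numbered libraries correlated at −0.43 across 15591 genes. In log2 CPM, Scr 2 correlated with miR-99 KD 1 at 0.978 and with Scr 1 at 0.968. The cause of this structure was not tested. With a replicate block 0 genes were called and the members' median was 0.29. A crossed replicate block, chosen after seeing the data, called 28 genes and 0 members.

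The level per kb depends by construction on the length used. With the longest transcript it was 83.0 for Gas5, 33.1 for Snhg5, 22.3 for Snhg6, 10.9 for Zfas1, 4.47 for Snhg3 and 3.74 for Snhg12. With unshared exon bases it was 68.7 for Gas5, 19.3 for Snhg3, 10.5 for Zfas1 and 2.97 for Snhg12. Depth limits Snhg3 most, with 94 counts in its lowest library.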
